A study of Mus musculus with 18 samples.

Results

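Intact skin from mice with Notch switched on in the epidermis was compared with intact skin from wild-type mice, on the 6 whole-skin arrays among the 18 of the study. Their titles assign 3 to K14NICDER transgenic mice and 3 to wild-type controls, and the tissue was chosen with its small spread between arrays already known. All were females of a C57Bl6xCBA F1 background, aged 7 weeks when treatment began, and both genotypes received 4-hydroxytamoxifen (4OHT) for 14 days, so the compound's own effect is shared by the groups. The transgene carries the intracellular domain of Notch fused to an oestrogen receptor domain that 4OHT activates, and the keratin 14 promoter drives it in basal keratinocytes. The other 12 arrays hold epidermis and dermis separated from such skin. The labels give neither the number of animals behind a sample nor any link between tissues of 1 animal. The p-values therefore reflect the scatter among these arrays, some of which may be technical.

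Notch is a receptor that a ligand on the neighbouring cell, of the Delta or Jagged family, releases from the membrane by cleavage. The freed intracellular domain enters the nucleus, joins the DNA-binding protein RBPJ and switches on target genes, among them repressors of the Hes and Hey families. In skin, Notch promotes the move of keratinocytes from the basal layer into differentiation, and it takes part in the maintenance of hair follicles and pigment cells.

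The values are log2 MAS5 signals, a microarray brightness per gene. A genotype difference is the transgenic mean minus the wild-type mean, so 1 unit is a doubling, and it is given ± its standard error from limma with n = 3 arrays per group. Whole skin was the most uniform of the 3 tissues. The median standard deviation of a gene within a group was 0.177 in wild-type and 0.182 in transgenic whole skin, against 0.356 to 0.471 in the epidermis groups and 0.329 to 0.540 in the dermis groups. Arrays of the same genotype correlated across the genes at 0.956 to 0.973, and arrays of different genotypes at 0.945 to 0.968. Markers of the layers that intact skin should hold were bright in wild type, with median log2 levels of 10.2 for differentiated keratinocyte, 9.03 for fibroblast and matrix, and 8.20 for adipocyte markers. Skeletal muscle content was uneven: the mean of 17 muscle markers was 8.24, 4.65 and 9.67 in the wild-type arrays and 7.02, 7.51 and 8.45 in the transgenic ones. None of the 17 was called by limma, and 0 had an unadjusted p below 0.05, beside 384 and 2447 of all 13739 genes. The Notch1 probe set gave a difference of 0.05 ± 0.14, but its position relative to the part of Notch in the transgene was not known, so it checks no label.

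Of 13739 genes tested, 384 differed between the genotypes at an adjusted p below 0.05, or 2.79%, with 235 higher in transgenic skin (1.71%) and 149 lower (1.08%). An unadjusted p below 0.05 in limma was found for 2447. These shares are the background for every list count below, and a short list would hold few calls at them. At least 2-fold changes numbered 104 upward and 62 downward, and at least 4-fold changes 40 upward and 5 downward. The largest called increases were Saa3 and Sprr1b, an acute-phase protein and an envelope protein of stressed epidermis, and the largest called decreases were Tmem45a2 and Il20ra, a membrane protein and a cytokine receptor subunit. Over all genes the median difference was -0.01. The deposited arrays had nearly the same trimmed mean signal, so this value does not compare total signal between the genotypes. Some 47 of the 235 had a wild-type mean under a log2 level of 5, and 25 of the 149 had a transgenic mean under it. At such levels MAS5 values scatter widely and a fold change is imprecise. The count depended on the arrays in the fit: it was 95 without wild-type replicate 1, 188 without wild-type replicate 3, 99 without transgenic replicate 1 and 131 without transgenic replicate 2, but 410 without transgenic replicate 3.

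**Figure D1:**
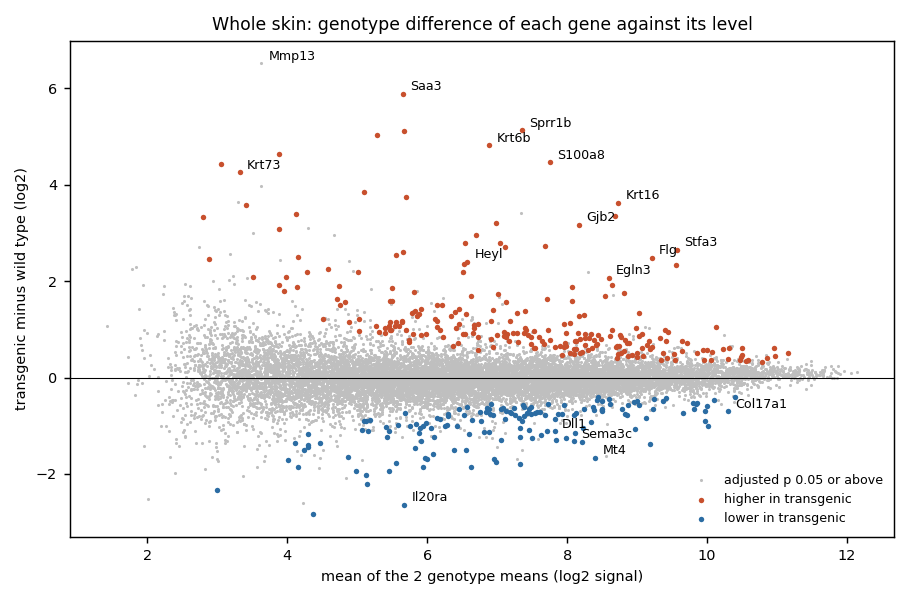
Genotype difference of each of the 13739 genes in whole skin (vertical axis, log2) against the mean of its 2 genotype means (horizontal axis, log2 signal). Orange points are the 235 genes called higher in transgenic skin and blue points the 149 called lower. The tallest increases, such as Saa3 and Sprr1b, exceed any decrease in size, and Mmp13 lies highest without passing the threshold.

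Of the Notch pathway genes tested, Heyl changed most among those called. It encodes a transcriptional repressor of the Hey family and is a direct Notch target. Its log2 signal was 5.50, 5.37 and 5.23 in the wild-type arrays and 7.82, 7.66 and 7.84 in the transgenic arrays. The groups lay far apart and each was tight. The difference was 2.40 ± 0.13, or 5.29-fold, with an adjusted p of 0.000241 in limma, and its 2 other probe sets gave 1.58 and 2.68. Of 11 Notch target genes tested, 3 rose and none fell, with a median difference of 0.37. The other 2 were Jag1, a Notch ligand that Notch itself can induce, and Myc, a growth regulator. Jag1 read 9.13, 9.09 and 9.23 in wild type and 9.50, 9.52 and 9.55 in transgenic skin, a small but non-overlapping rise of 0.37 ± 0.08 with an adjusted p of 0.0453, and its 2 other probe sets gave 0.29 and 0.31 and did not pass. Myc rose by 0.62 ± 0.12, with an adjusted p of 0.0285. Neither call survived leaving out any one array, after which Heyl alone of the list passed.

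Other familiar Notch effectors did not pass. Nrarp, which feeds back on the receptor's intracellular domain, gave 0.37 ± 0.12 (adjusted p = 0.142), and its 3 transgenic arrays lay above the wild-type ones. Hes1 gave 0.80 ± 0.44 at a dim signal with overlapping arrays, and Hey1 gave -0.18 ± 0.13. Hes5 was not among the genes tested. Gata3, a transcription factor of hair and epidermal differentiation, gave -0.91 ± 0.21 and all its transgenic arrays lay below wild type, with an adjusted p of 0.0608.

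Another ligand and a Fringe enzyme fell. Dll1, the Delta ligand of basal keratinocytes, read 8.44, 8.33 and 8.36 in wild type and 7.20, 7.20 and 7.39 in transgenic skin. It fell by 1.12 ± 0.11, with an adjusted p of 0.00252. Lfng, a Fringe enzyme that adds sugar to Notch and alters its choice of ligand, fell by 0.61 ± 0.13 (adjusted p = 0.0493), although its other probe set gave 0.25 and did not pass. Lfng lost its call whichever array was left out and under 8 of 10 other settings. Among 9 ligands and Fringe enzymes tested, 1 rose and 2 fell. Of 14 receptors and processing genes 0 were called by limma, and of 10 nuclear partners 0, beside 2.79% of all genes. Lists this short would hold few calls at that share, so these counts set no contrast with the ligands. In the 2 lists, 1 and 0 genes had an unadjusted p below 0.05, as did 2447 of all 13739 genes. In the nuclear group Rbpj gave -0.07 and the coactivator gene Maml1 -0.01.

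**Figure D2:**
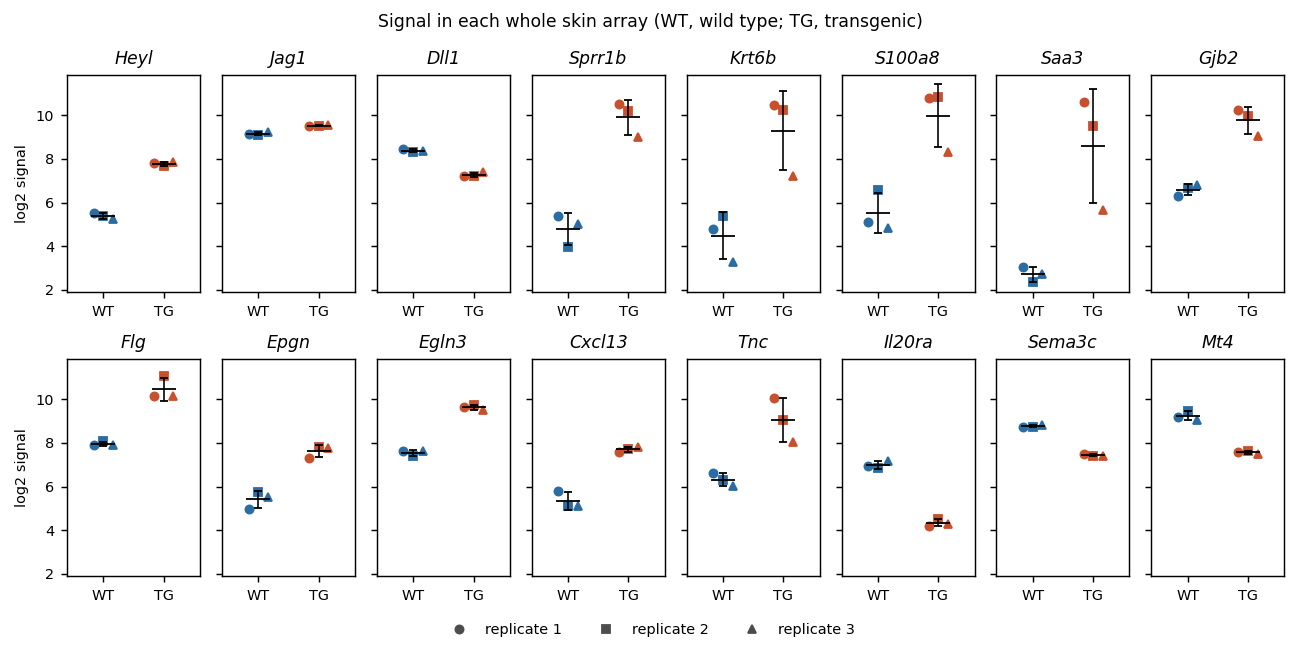
Log2 signal of 16 genes in each whole-skin array (WT, wild type; TG, transgenic). Each symbol is 1 array, and the black bar and whiskers are the mean and standard deviation of 3 arrays. Heyl, Egln3 and Cxcl13 rise with little spread, Saa3 and Krt6b rise with transgenic replicate 3 well below the others, and Dll1, Il20ra, Sema3c and Mt4 fall with little spread.

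The list with the most called genes was that of keratinocyte alarm and activation, the keratins, antimicrobial proteins and envelope proteins that epidermis makes after wounding or in inflamed, thickened skin. Of 17 tested, 12 rose and none fell, and the median difference was 3.34 against -0.01 over all genes. Earlier results of these data were known when the list was drawn up, so its count is a description. Sprr1b, a small proline-rich protein cross-linked into the cornified envelope, read 5.38, 3.96 and 5.01 in wild type and 10.53, 10.20 and 9.004 in transgenic skin. It rose by 5.13 ± 0.44, or 35.0-fold, with an adjusted p of 0.00143. Sprr2d (3.75 ± 0.58) and Sprr2h (3.85 ± 0.51) rose as well, and Sprr1a, already bright at 10.9 in wild type, rose by only 0.51 ± 0.10. The Sprr2 genes are close copies, so their probe sets may share signal.

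Promoters of 3 of these small proline-rich genes are shown because the genes rose together and each carries an AP-1 motif, the letters TGANTCA that read the same on both strands and are bound by Fos and Jun. The sequences are the 250 bases before the transcription start, from RefSeq on GRCm38.p6, with each AP-1 motif in capitals together with any RBPJ core (TGGGAA, or TTCCCA on the other strand). Sprr1b lies on the minus strand at chr3:92438780-92439029, and its motif begins 111 bases before the start. Sprr2d is on the plus strand at chr3:92338890-92339139, with AP-1 at 193 bases and the RBPJ core at 149. Sprr2h is on the plus strand at chr3:92385435-92385684, with AP-1 at 198 bases.
Sprr1b: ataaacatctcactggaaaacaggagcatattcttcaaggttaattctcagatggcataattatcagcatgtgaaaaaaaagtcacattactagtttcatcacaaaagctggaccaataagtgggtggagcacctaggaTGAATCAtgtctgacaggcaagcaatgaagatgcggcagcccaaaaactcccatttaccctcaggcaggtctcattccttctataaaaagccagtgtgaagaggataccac
Sprr2d: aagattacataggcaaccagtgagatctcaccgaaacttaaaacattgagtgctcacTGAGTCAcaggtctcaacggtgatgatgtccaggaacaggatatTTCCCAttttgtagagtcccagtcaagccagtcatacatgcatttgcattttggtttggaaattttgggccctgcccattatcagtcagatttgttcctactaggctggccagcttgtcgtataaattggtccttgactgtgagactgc
Sprr2h: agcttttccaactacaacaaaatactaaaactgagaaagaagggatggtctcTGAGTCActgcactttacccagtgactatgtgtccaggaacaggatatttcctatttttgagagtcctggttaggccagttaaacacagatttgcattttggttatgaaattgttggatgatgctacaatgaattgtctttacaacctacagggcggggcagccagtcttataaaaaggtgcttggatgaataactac
In the table of 32851 promoters, 6.75% hold the AP-1 motif in these 250 bases and 21.6% hold the RBPJ core. Promoters were found for 11007 of the 13739 genes tested, 179 of the 235 higher and 117 of the 149 lower. AP-1 stood in 12.3% of the matched higher genes and 9.40% of the lower ones, beside 6.02% of all tested. The RBPJ core stood in 25.7%, 29.1% and 24.0% of the same groups. These are letter matches in a short window and not binding sites.

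Lfng, whose decrease was called only with all 6 arrays, holds the RBPJ core at 2 places, 135 and 108 bases before its start. Its promoter is shown as the case with both orientations of that motif, on the plus strand at chr5:140607091-140607340.
Lfng: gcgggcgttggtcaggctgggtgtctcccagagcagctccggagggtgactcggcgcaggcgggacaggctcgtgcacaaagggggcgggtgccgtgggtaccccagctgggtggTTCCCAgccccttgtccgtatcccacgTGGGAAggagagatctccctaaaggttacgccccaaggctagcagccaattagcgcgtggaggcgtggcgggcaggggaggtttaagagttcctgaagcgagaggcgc

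Stress keratins rose with the envelope genes. Krt6b and Krt16 form filaments of wounded and hyperproliferative epidermis. Krt6b read 4.78, 5.37 and 3.28 in wild type and 10.45, 10.22 and 7.22 in transgenic skin, and rose by 4.82 ± 0.83 (adjusted p = 0.0211). Krt16 went from 7.14, 7.43 and 6.18 to 11.10, 11 and 9.51, a rise of 3.62 ± 0.44. Krt6a rose by 2.34 ± 0.28 and Krt17 by 1.04 ± 0.12. The lowest transgenic array of these keratins was replicate 3 each time, still above every wild-type array.

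Antimicrobial and acute-phase proteins behaved likewise. S100a8 and S100a9 encode the subunits of calprotectin, made by neutrophils and by activated keratinocytes. S100a8 read 5.12, 6.58 and 4.85 in wild type and 10.77, 10.85 and 8.34 in transgenic skin, a rise of 4.47 ± 0.67 with an adjusted p of 0.0142. S100a9 rose by 3.35 ± 0.51. Saa3, an acute-phase protein, had the largest called difference, 5.89 ± 1.04, and also the widest spread. Its 3 transgenic arrays read 10.61, 9.52 and 5.66, against 3.06, 2.35 and 2.72 in wild type, so the estimate depends on which arrays are counted.

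Transgenic replicate 3 stood apart across this list. It was the lowest of the 3 transgenic arrays in 16 of the 17 alarm genes and in all 12 called ones, and in 138 of the 235 genes that rose (58.7%). Over all genes tested the share was 31.8%. The mean of the 17 alarm genes was 5.66, 5.59 and 5.12 in wild type and 9.03, 8.89 and 7.29 in transgenic skin, so the third transgenic array remained above every wild-type array. Without that array 14 of the 17 passed, and with any other array left out between 5 and 9 passed. With a prior without a trend over the signal level 1 passed. The direction in the falling genes was similar: that array was the highest transgenic one in 73 of 149 (49.0%), against 35.5% of all genes.

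Some strong increases did not share this gradient. Of the 40 genes that rose at least 4-fold, 9 spanned less than 0.5 between the highest and lowest transgenic array, Heyl, Egln3, Cxcl13 and Krt73 among them, and 12 spanned more than 2. Chodl, a membrane lectin named here after its values were seen, rose by 2.08 ± 0.27 with transgenic arrays at 4.999, 5.11 and 4.98. The median span of the 40 was 1.42.

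**Figure D3:**
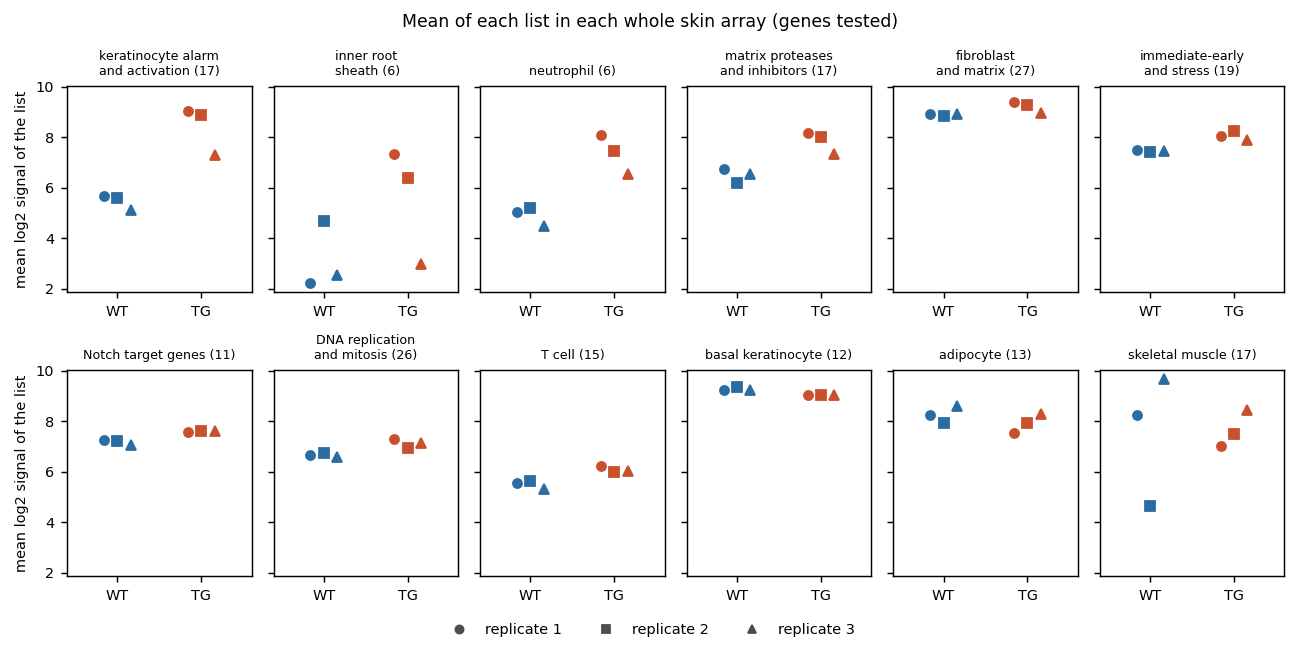
Mean log2 signal of 12 gene lists in each whole-skin array (WT, wild type; TG, transgenic), with the number of genes tested in brackets. Each symbol is 1 array. Transgenic replicate 3 lies below the other transgenic arrays in the alarm, inner root sheath, neutrophil and protease lists, level with them in Notch targets, and wild-type replicate 2 has little muscle signal.

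Genes of late differentiation rose in part. Of 24 differentiated keratinocyte markers, 5 rose and 1 fell, beside 1.71% and 1.08% of all genes, with a median difference of 0.20. The 5 became 2 without wild-type replicate 1, transgenic replicate 1 or transgenic replicate 2. Flg, the precursor of filaggrin that packs keratin in the cornified layer, read 7.91, 8.08 and 7.92 in wild type and 10.15, 11.06 and 10.15 in transgenic skin, a rise of 2.48 ± 0.22 with an adjusted p of 0.00186. Casp14, a protease of cornification, rose by 1.89 ± 0.21 and Ivl, the envelope protein involucrin, by 0.91 ± 0.14. The other Casp14 probe set gave -0.10 and did not pass. With its probe sets averaged, Casp14 gave 0.89 and lost its call (adjusted p = 0.118 in limma). Lce1m, a late envelope protein, fell by 0.69 ± 0.09. Outside the count of 1 probe set per gene, another probe set of the keratin gene Krt2 was called lower, at -2.85. The other Ivl probe set was called higher, at 1.11. The early suprabasal keratin Krt10 gave 0.00 ± 0.09 and the groups overlapped. None of 15 barrier lipid enzymes was called by limma, beside 2.79% of all genes. An unadjusted p below 0.05 was found for 6 of them and for 2447 of all 13739 genes.

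Further increases lay outside the alarm and differentiation lists. Lce3f, a late envelope protein of the group induced in damaged skin, rose by 5.12 ± 0.66. Gjb2, the gap junction protein connexin 26, read 6.32, 6.65 and 6.79 in wild type and 10.23, 9.98 and 9.07 in transgenic skin, a rise of 3.17 ± 0.27, and it was the 1 called gene of 19 cell junction genes. Stfa3, a cysteine protease inhibitor of the stefin family, rose by 2.65 ± 0.16, with an adjusted p of 0.000314 and a standard deviation of 0.25 among the transgenic arrays. The kallikrein protease gene Klk13 rose by 3.22 ± 0.50, and Chil1, a secreted chitinase-like protein, by 2.96 ± 0.33. Aldh1a3, a retinoic acid-forming enzyme named here after its values were seen, rose by 2.79 ± 0.37. The uncharacterised transcript 2610528A11Rik rose by 5.04 ± 0.52 and stayed past the threshold under each alternative in which it was tested.

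Basal keratinocyte genes moved by small amounts, with a median difference of -0.19 and 2 of 12 positive. In 4 of them all transgenic arrays lay below wild type and in 1 above, beside 12.7% and 11.6% of all genes. An unadjusted p below 0.05 in limma was found for 4 of the 12, and for 2447 of all 13739 genes. Only 1 of 12 was called: Col17a1, a collagen of the hemidesmosomes that hold basal cells to the basement membrane, fell by 0.70 ± 0.08 (adjusted p = 0.00529), from 10.62, 10.71 and 10.62 to 9.84, 9.92 and 10.09. The integrin gene Itga6 (-0.32 ± 0.09) and the laminin gene Lamb3 (-0.47 ± 0.13) also lay below wild type in all transgenic arrays, but were not called. Krt14, whose promoter drives the transgene, gave 0.28 ± 0.10 and was not called. Krt15, a keratin of basal and follicle stem cells, gave -0.16 ± 0.11 in whole skin. In bulk samples, fewer cells of a type and less RNA per cell cannot be told apart.

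Among growth factors that act through the EGF receptor, 1 of 11 genes rose and 1 fell, beside 1.71% and 1.08% of all genes. Epgn, which encodes the ligand epigen, read 4.99, 5.77 and 5.51 in wild type and 7.29, 7.80 and 7.75 in transgenic skin, a rise of 2.19 ± 0.22. Btc, which encodes betacellulin, another ligand of that receptor, fell by 1.76 ± 0.24, with transgenic arrays at 6.55, 5.91 and 5.84 against 7.66, 8.30 and 7.63. The 2 ligands thus changed in opposite directions in the same arrays. Hbegf gave 1.84 ± 0.42, with an adjusted p of 0.0602.

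Hair follicle genes gave an uneven picture. Krt73, a keratin of the inner root sheath, rose from 0.95, 2.14 and 0.49 to 5.40, 5.49 and 5.48. Against such dim wild-type values the difference of 4.26 ± 0.46 is imprecise as a fold. The other 5 sheath genes tested did not pass. Krt27, also an inner root sheath keratin, read 8.60, 6.59 and 2.95 in transgenic skin, against 3.12, 5.85 and 2.51 in wild type, and the groups overlapped. The mean of the 6 sheath genes was 2.23, 4.70 and 2.56 in wild type and 7.35, 6.37 and 2.96 in transgenic skin, so replicates 1 and 2 of the transgenic group carried the most signal of this layer of the growing hair. Its part in the other increases was not tested. None of 12 hair shaft genes was called by limma, beside 2.79% of all genes. An unadjusted p below 0.05 was found for 1 of them and for 2447 of all 13739 genes. Of 14 follicle stem cell markers, Cd34 (-0.66 ± 0.09) and Lgr6 (-0.71 ± 0.12) fell, and Krt79, a keratin of the follicle opening, rose by 0.44 ± 0.09. Neither decrease passed without transgenic replicate 1. Among the 6 fits that left out an array, Cd34 lost its call in 1, and Lgr6 and Krt79 in 4 each.

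Wnt signals, which support follicle growth and stem cells, included more decreases than increases. Of 28 tested genes, 3 fell and 1 rose, beside 1.08% and 1.71% of all genes. The median difference was -0.33, and in 12 genes all transgenic arrays lay below wild type. Over all genes 12.7% lay below in that way and 11.6% above. Wnt3a, a Wnt ligand, read 4.87, 4.87 and 5.22 in wild type and 3.38, 3.63 and 3.46 in transgenic skin, and fell by 1.499 ± 0.24. Rspo3, which enhances Wnt responses, fell by 1.404 ± 0.25, and Fzd2, a Wnt receptor, by 0.57 ± 0.09. The secreted Wnt inhibitor gene Sfrp2 rose by 1.51 ± 0.23. Without wild-type replicate 1 or without transgenic replicate 1, none of the 3 decreases passed, and without transgenic replicate 2 the list had 1 called decrease. Rspo3 lost its call in 5 of the 6 fits that left out an array, and Wnt3a and Fzd2 in 3 each. Sfrp2 lost its call without wild-type replicate 1, transgenic replicate 1 or transgenic replicate 2.

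**Figure D4:**
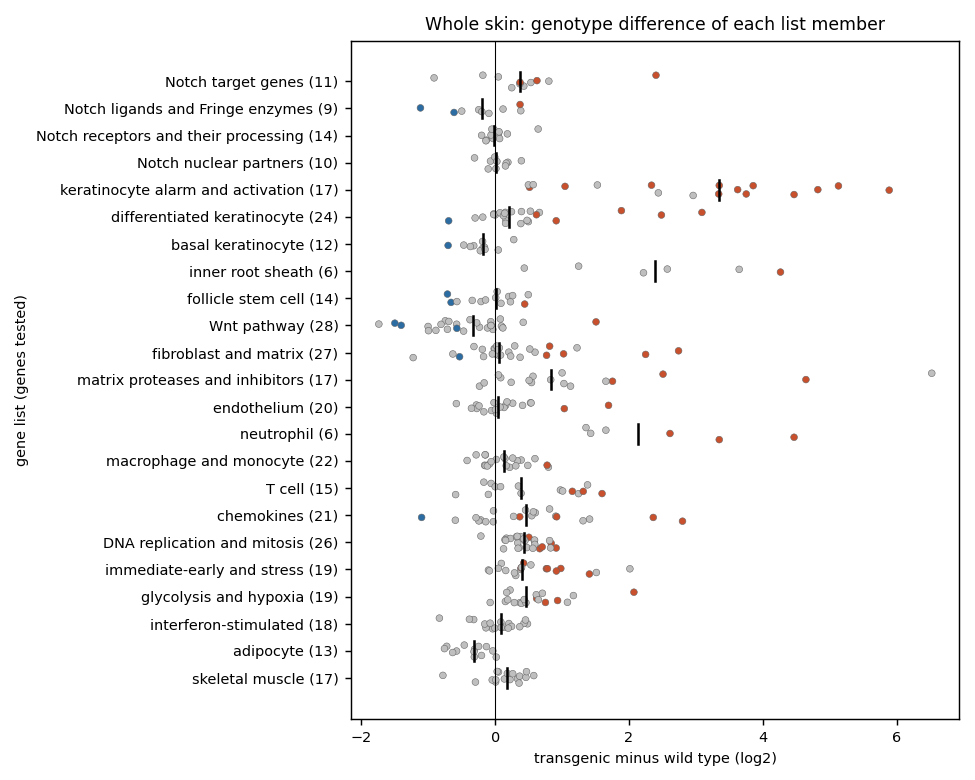
Genotype difference of each member of 23 gene lists in whole skin (horizontal axis, log2), with the number of genes tested in brackets. Points are genes, orange where called higher and blue where called lower, and black bars are list medians. The alarm list has a median of 3.34, receptors and nuclear partners of Notch cluster near 0, and the Wnt list lies mostly below 0.

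Matrix genes of the dermis changed in part. Of 27 fibroblast and matrix genes, 5 rose and 1 fell, beside 1.71% and 1.08% of all genes. The median difference was 0.06 and Col1a1, the main fibrillar collagen chain, gave -0.01. The 5 became 2 without wild-type replicate 1 or transgenic replicate 2 and 3 without transgenic replicate 1. The 3 chains of collagen VI rose together: Col6a1 by 0.81 ± 0.10, Col6a2 by 1.02 ± 0.13 and Col6a3 by 0.77 ± 0.12. Tnc, the matrix protein tenascin C of healing wounds, read 6.63, 6.30 and 6.02 in wild type and 10.05, 9.06 and 8.06 in transgenic skin, a rise of 2.74 ± 0.42 with an adjusted p of 0.0144. Cthrc1, a secreted protein of activated fibroblasts, rose by 2.25 ± 0.36. Lum, the collagen-binding proteoglycan lumican, fell by 0.53 ± 0.10, a decrease outside the naming rule. The membrane protein gene Lrrc15, also named after its values were seen, rose by 2.71 ± 0.49 and lost its call in 5 of the 6 fits that left out an array. Tnc lost its call without wild-type replicate 1 or transgenic replicate 2. Differences in this list ran from -1.23 to 2.74. In 10 genes all transgenic arrays lay above wild type and in 5 below, beside 11.6% and 12.7% of all genes. Among other probe sets of list members, 1 each of Fmod and Col14a1 was called lower. For Col6a2, Pdgfrb and Tnc 1 each was called higher.

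Among 17 matrix proteases and inhibitors, 3 rose and none fell, beside 1.71% and 1.08% of all genes. Mmp3, or stromelysin 1, read 7.93, 8.01 and 7.88 in wild type and 10.11, 9.85 and 9.12 in transgenic skin, a rise of 1.75 ± 0.22. Mmp10 rose by 4.64 ± 0.91 and the inhibitor Timp1 by 2.51 ± 0.53. Mmp13, the collagenase with the largest difference of all, 6.52 ± 1.71, did not pass (adjusted p = 0.0919). Its wild-type arrays read 2.74, -4.12 and 2.48, and the lowest of these sets the size of the mean. Without transgenic replicate 3, 6 genes of this list passed, without wild-type replicate 2 it was 2, and without any other array it was 1. Mmp10 and Timp1 each lost their call in 5 of the 6 fits that left out an array, whereas Mmp3 kept it in all of them.

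Of 15 T cell genes, 11 had a positive difference, with a median of 0.39. In 7 all transgenic arrays lay above wild type and in 1 below, beside 11.6% and 12.7% of all genes. Only 3 passed the test, all of them higher, while 8 had an unadjusted p below 0.05, and the 3 are known from regulatory or activated T cells. Ctla4, an inhibitory receptor, read 4.77, 4.89 and 4.34 in wild type and 6.63, 6.22 and 5.94 in transgenic skin, a rise of 1.597 ± 0.23. Icos, a costimulatory receptor, rose by 1.32 ± 0.21, and Foxp3, the transcription factor of regulatory T cells, by 1.15 ± 0.24 (adjusted p = 0.0417). Cd8a, the coreceptor of cytotoxic T cells, gave 1.25 ± 0.31 and Cd5, a surface receptor of T cells, 1.38 ± 0.36, both without overlap but not called (adjusted p = 0.0756 and 0.0862). Cd2, an adhesion molecule of T cells, gave 0.39 without overlap. Genes of the T cell receptor complex gave values below 0 that did not pass, at -0.17 ± 0.20 for Cd3e, -0.06 for Cd3d and -0.59 for Cd3g. Foxp3 lost its call whichever array was left out, with adjusted p between 0.0623 and 0.154. Without transgenic replicate 1 none of the 3 passed, and without wild-type replicate 1 or transgenic replicate 2 only 1 did.

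In the neutrophil list 3 of 6 genes rose, but none passed without wild-type replicate 1, transgenic replicate 1 or transgenic replicate 2. Of these S100a8 and S100a9 also stand in the alarm list, and Stfa2l1 (2.61 ± 0.54) belongs to the stefin family. Mmp9, the neutrophil gelatinase, gave 1.65 ± 0.53 (adjusted p = 0.149). The mean of the 6 neutrophil genes ran from 4.48 to 5.18 in wild type and from 6.55 to 8.10 in transgenic skin, and the part of neutrophils in the alarm gene increases was not tested. Of 22 macrophage genes, Ms4a7 rose by 0.78 ± 0.13 and the others did not pass. Ms4a7 lost its call in 4 of the 6 fits that left out an array.

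Of 13 Langerhans and dendritic cell genes, 2 rose, beside 1.71% of all genes. Only 4 of the 13 had a positive difference and the median was -0.12. Itgax, an integrin of dendritic cells, read 5.51, 5.64 and 5.52 in wild type and 7.02, 6.55 and 6.62 in transgenic skin, a rise of 1.17 ± 0.16. Ccr7, the receptor that guides dendritic and T cells to lymph nodes, rose by 2.09 ± 0.44 from a dim wild-type mean of 2.47 and lost its call in 5 of the 6 fits that left out an array. Neither of the 2 passed without wild-type replicate 1. Cd209a, a lectin of dendritic cells, gave -0.45 ± 0.11 with all transgenic arrays below wild type (adjusted p = 0.0696), and Cd207, the Langerhans cell lectin langerin, gave -0.11. None of 18 interferon-stimulated, 8 mast cell or 3 B cell genes was called by limma, beside 2.79% of all genes. An unadjusted p below 0.05 was found for 2, 1 and 1 of them, and for 2447 of all 13739 genes.

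Signals that attract or hold leukocytes changed in both directions. Of 21 chemokine genes, 4 rose and 1 fell, beside 1.71% and 1.08% of all genes. Only 1 of the 4 passed without wild-type replicate 1, wild-type replicate 3, transgenic replicate 1 or transgenic replicate 2. Cxcl13, which attracts B cells and follicular helper T cells, read 5.82, 5.13 and 5.10 in wild type and 7.59, 7.72 and 7.82 in transgenic skin, a rise of 2.36 ± 0.20 with an adjusted p of 0.00143, and its other probe set gave 3.43. Cxcl16 rose by 0.92 ± 0.18 and Ccl8 by 0.37 ± 0.07. Cxcl1, a neutrophil attractant named here after its values were seen, rose by 2.80 ± 0.59 and lost its call in 5 of the 6 fits that left out an array. Xcl1, an attractant made by T cells, fell by 1.10 ± 0.20, a call lost in 4 of the 6 fits that left out an array. Vcam1, an adhesion molecule that captures leukocytes, rose by 1.69 ± 0.20, although its other 2 probe sets gave -0.33 and 1.18 and did not pass. Of 20 endothelial genes, Vcam1 and Flt1 rose, Flt1 losing its call in 4 of the 6 such fits, and Pecam1, found on all endothelium, gave 0.16.

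Among cytokines, the interleukin-1 family genes Il1f8 (1.43 ± 0.25) and Il1f9 (1.12 ± 0.20) rose, and the decoy receptor gene Il1r2 fell by 0.77 ± 0.11, out of 15. The called shares of all genes were 1.71% higher and 1.08% lower. Neither increase passed without wild-type replicate 1, wild-type replicate 3, transgenic replicate 1 or transgenic replicate 2, nor did Il1r2 without wild-type replicate 1 or transgenic replicate 1. Tslp, an epithelial cytokine that promotes type 2 responses, gave 0.55 ± 0.20 with non-overlapping arrays and an adjusted p of 0.203. Il20ra, a receptor subunit for interleukins 19, 20 and 24, had the smallest p of all decreases. It read 6.95, 6.83 and 7.18 in wild type and 4.22, 4.53 and 4.31 in transgenic skin, and fell by 2.64 ± 0.17, with an adjusted p of 0.000338. It was the 1 gene of 7 called in the interleukin-17 and interleukin-20 list.

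Cell division genes changed by small amounts. Of 26 replication and mitosis genes, 25 had a positive difference and 5 were called, with a median of 0.44. Mki67, the proliferation antigen Ki-67, read 9.55, 9.63 and 9.61 in wild type and 10.20, 9.94 and 10.17 in transgenic skin, a rise of 0.50 ± 0.09 with an adjusted p of 0.0236. Top2a rose by 0.84 ± 0.15 and Ccna2, cyclin A2, by 0.91 ± 0.16. No call of this list survived leaving out wild-type replicate 1, wild-type replicate 3, transgenic replicate 1 or transgenic replicate 3.

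Of 19 immediate-early and stress genes, which respond rapidly to growth factors and wounding, 7 rose. The 7 became 1 without transgenic replicate 1, 3 without wild-type replicate 1 or transgenic replicate 2 and 4 without wild-type replicate 3. With a prior without a trend limma called 0 of the 19, and with the trend 10 of the 19 had an unadjusted p below 0.05. Egr1 rose by 0.98 ± 0.12, Jun by 0.76 ± 0.11 and Fos by 1.41 ± 0.24, from 6.77, 6.27 and 5.68 to 7.70, 7.73 and 7.51. Among 19 glycolysis and hypoxia genes 4 rose, beside 1.71% of all genes. The 4 became 2 without wild-type replicate 1, transgenic replicate 1 or transgenic replicate 2, and 7 without wild-type replicate 3. Egln3, a prolyl hydroxylase that marks the hypoxia factor for destruction and is induced by it, read 7.65, 7.40 and 7.61 in wild type and 9.66, 9.72 and 9.50 in transgenic skin. It rose by 2.07 ± 0.11, with an adjusted p of 0.000241, and its second probe set gave 1.99. The glucose transporter gene Slc2a1 rose by 0.75 ± 0.08 and Pgk1, a glycolytic enzyme, by 0.62 ± 0.10. Of 17 respiratory chain genes 0 were called by limma, beside 2.79% of all genes. An unadjusted p below 0.05 was found for 1 of them and for 2447 of all 13739 genes.

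Several other decreases showed little spread. Mt4, a metallothionein of stratified epithelium, read 9.18, 9.47 and 9.07 in wild type and 7.59, 7.62 and 7.501 in transgenic skin, and fell by 1.67 ± 0.12 with an adjusted p of 0.00059. Sema3c, a secreted guidance cue, fell by 1.32 ± 0.09, and its relative Sema3d by 1.85 ± 0.19. Tmem45a2, a membrane protein, had the largest called decrease, 2.83 ± 0.28. Its transgenic arrays read a dim 3.11, 2.52 and 3.21, so the fold is imprecise, and with 16 added the difference was -1.58. The steroid-handling enzyme genes Akr1c18 (-1.38 ± 0.11) and Akr1c19 (-2.21 ± 0.22) fell, as did Slc6a2, the noradrenaline transporter, by 1.80 ± 0.25. Irf4, a transcription factor of lymphocytes, dendritic cells and pigment cells, fell by 1.69 ± 0.19, from 7.05, 7.03 and 6.43 to 5.16, 5.19 and 5.10. Endothelin 1, encoded by Edn1 and a growth signal for pigment cells, rose by 1.22 ± 0.15. None of 10 melanocyte markers and none of 9 Schwann cell markers was called by limma, beside 2.79% of all genes. An unadjusted p below 0.05 was found for 1 and 3 of them, and for 2447 of all 13739 genes. Lists this short would hold few calls at that share, so the counts set no contrast with Edn1.

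The remaining tissue markers and pathways gave few calls. Osmr and Gclc lost theirs whichever array was left out, and Elovl3 and Inhba in 5 of the 6 such fits. Of 13 adipocyte markers 0 were called by limma, beside 2.79% of all genes. An unadjusted p below 0.05 was found for 1 of them and for 2447 of all 13739 genes. The median adipocyte difference was -0.31 and Adipoq, the fat cell hormone adiponectin, gave -0.58 (adjusted p = 0.322). Of 10 smooth muscle and pericyte genes Actg2, a smooth muscle actin, fell by 0.78 ± 0.14, a call lost without wild-type replicate 1, wild-type replicate 2, transgenic replicate 1 or transgenic replicate 2. Of 11 sebaceous gland genes Elovl3, a fatty acid elongase, rose by 0.88 ± 0.18. In the cholesterol synthesis list Cyp51 (0.58 ± 0.08) and Fdft1 (0.56 ± 0.08), both enzymes of the pathway, rose among 19 genes, of which 17 had a positive difference. The 3 other Fdft1 probe sets ran from -0.58 to 1.37 and did not pass. With probe sets averaged, a prior without a trend or all 18 arrays, limma called 0 genes of this list. Of 21 BMP and TGF-beta genes Inhba, a subunit of activin, rose by 1.33 ± 0.24, and Bmp4 gave -1.12 (adjusted p = 0.114). Of 13 type 2 cytokine genes Osmr, the oncostatin M receptor, rose by 0.58 ± 0.12. Among 14 metallothionein and oxidative stress genes Gclc, an enzyme of glutathione synthesis, fell by 0.65 ± 0.13, as did Mt4. None of 7 hedgehog genes was called by limma or had an unadjusted p below 0.05, beside 384 and 2447 of all 13739 genes.

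The changes in intact skin were set beside those in the separated layers, which come from other arrays. Of the 235 genes that rose, 221 (94.0%) also had a positive difference in epidermis and 195 (83.0%) in dermis, beside 44.6% and 45.4% of all genes tested. Of the 149 that fell, 134 (89.9%) were negative in epidermis and 137 (91.9%) in dermis, beside 55.4% and 54.6% of all genes. Medians of the risen genes were 0.93 in whole skin, 1.26 in epidermis and 0.59 in dermis. Those of the fallen genes were -0.88, -1.14 and -0.78. Whether the tissues share animals is not stated, so these shares are descriptions.

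**Figure D5:**
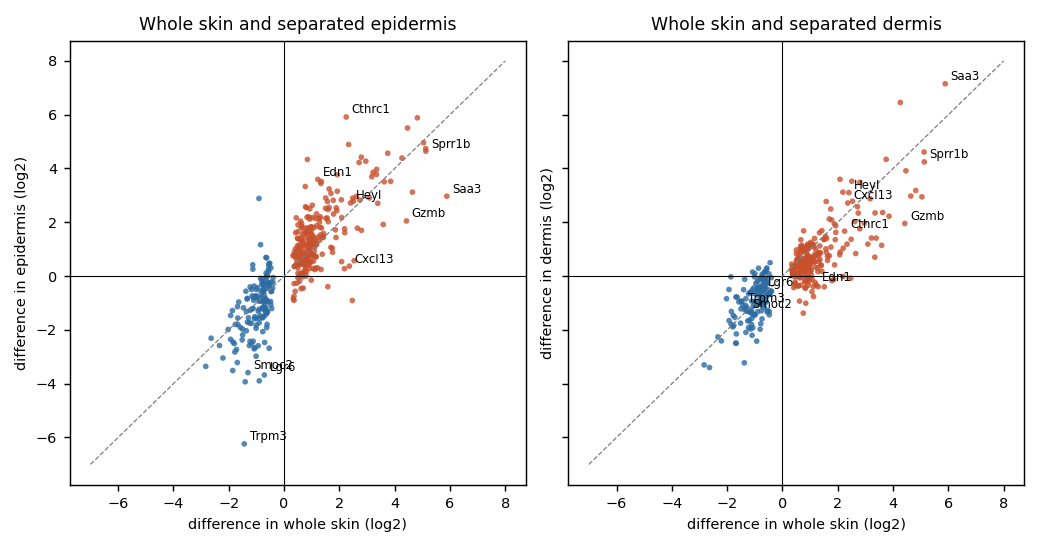
Genotype difference of the 384 called genes in whole skin (horizontal axes, log2) against that in separated epidermis (left) and separated dermis (right). Orange genes were called higher and blue genes lower in whole skin, and the dashed line marks equal differences. Most genes lie in the quadrants of equal sign, and Trpm3 has a more negative difference in epidermis than in whole skin.

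Tested directly, the genotype difference in whole skin departed from that in epidermis in 6 of 13739 genes (0.0437%), and from that in dermis in 0 genes (0%). At an unadjusted p below 0.05 these limma fits had 1528 and 428 genes. Krt15 had the smallest adjusted p, with -0.16 in whole skin against -3.66 in epidermis, a difference between tissues of 3.50 ± 0.43 and an adjusted p of 0.0293. Smoc2, a matricellular protein, gave -1.30 in whole skin against -3.59 in epidermis, and Trpm3, a cation channel, -1.44 against -6.24. Gem, a small GTPase, gave 0.09 in whole skin and -2.23 in epidermis. Thbd, the anticoagulant receptor thrombomodulin, gave 0.28 against 3.18, and Capn2, a calcium-dependent protease, 0.39 against 2.32. The layers are noisier than whole skin, and no gene was called when any one whole-skin array or epidermis wild-type replicate 3 was left out. The count was 3 without epidermis transgenic replicate 2 and 28 without epidermis transgenic replicate 3, and leaving out epidermis wild-type replicate 2 raised the count to 954. For dermis the count stayed at 0 except without dermis transgenic replicate 1, where it was 51.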

How the data were processed

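Expression was measured on Affymetrix mouse arrays. The submitters' processing notes name MAS5, with no version or settings in the labels. The authors deposited 45037 probe sets as values that were read as log2 signal from their range: set back to the linear scale, the mean without the highest and lowest 2% was 99.5 on the 6 whole-skin arrays. The number of arrays limits the precision, and scan dates were not used here.

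The platform annotation gave 34945 probe sets 1 symbol, 932 several (not named) and 9160 none. A gene took its brightest probe set by mean over the 18 arrays, and genes above the 30th percentile, a log2 value of 3.15, were kept. A gene dim in most groups could therefore pass through a group where it was high. limma 3.58.1 in R 4.3.3 fitted the 6 arrays alone, as deposited, with a trended prior and Benjamini-Hochberg adjustment over 13739 genes at a threshold of 0.05. The fit was tested on simulated data. Differences between tissues used the 12 arrays of both tissues. Same-numbered arrays did not deviate together (correlations of -0.09, -0.16 and 0.13), so they were not paired. Alternatives were other normalizations, filters, probe set choices and priors, a replicate block, all 18 arrays and leaving out each array.

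Named genes were the 15 largest called increases and decreases, ranked with 16 added on the linear scale, up to 4 members of each of 44 lists by adjusted p, 19 genes chosen whatever their result, and differences between tissues. Other named genes were picked with their values in view. The arrays, members and lists were chosen with earlier results of these data known.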

Additional observations from a re-analysis of the deposited data

Results flagged for a closer look

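A direct test of the difference between tissues singled out 6 genes whose genotype effect was not the same in whole skin and in separated epidermis. Krt15 had a whole-skin effect 3.50 above that in epidermis. Trpm3 differed by 4.80, Gem by 2.32 and Smoc2 by 2.28 in the same direction, the epidermal effect being the more negative. Thbd differed by -2.90 and Capn2 by -1.93, the epidermal effect being the more positive. Adjusted p in limma lay between 0.0293 and 0.0499 for the 6. No gene was called when any one whole-skin array or epidermis wild-type replicate 3 was left out. Groups of 3 arrays are too small to be screened for single outlying arrays.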

How the results depend on the processing

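The count of 384 genes in whole skin moved to 240 with each gene's probe sets averaged, 84 with a prior without a trend (76 shared) and 37 in a fit of all 18 arrays (36 shared), where the noisier layers set the spread. Leaving out 1 array gave 95 to 410. With the replicate number as a block it was 251, of which 225 were shared, but the numbers do not pair the arrays. It stayed within 1.5 times under quantile normalization, a 75th percentile shift, 16 added, 2 other filters, another choice of probe set and every probe set alone. The 6 differences from epidermis became 17 with quantile normalization, 1 with every probe set alone, 11 with all 18 arrays, 15 with array weights per tissue and 0 under the replicate block, and 0 to 954 leaving out 1 array. The 0 differences from dermis became 0 to 51 leaving out 1 array, and 0 under every other setting run. Of 103 named genes called in whole skin, all 103 kept their sign in every setting that tested them. In those settings 14 also kept their call: 2610528A11Rik, Akr1c19, Chil1, Dll1, Egln3, Epgn, Gjb2, Il20ra, Irf4, Krt73, Mt4, Sema3c, Sprr1b and Stfa3. Of these 14, Akr1c19 and Krt73 were tested in 15 settings and the rest in 16. Heyl lost its call only in the fit of all 18 arrays (adjusted p = 0.245). Saa3 lost its call under 7 settings, 16 added among them. Signal near background limits Krt73, Mmp10, Mmp13 and Tmem45a2.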
